A study of Mus musculus with 4 samples.

Results

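Klf2, Klf4, Klf5, Myc, Mycn and Mycl, 6 genes of the Klf and Myc families, were examined for CTCF peaks in 4 edited mouse embryonic stem cell (mESC) lines. A peak summit counted when it lay within 50 kb of the annotated span of a gene, and positions within 5 kb of the transcription start (promoter-near) were kept apart from distal ones. Summits of different libraries that lay within 100 bp of each other were joined into a position. This gave 68 positions, of 123687 positions outside chromosome 11, of which 18 were promoter-near and 50 distal. The windows of the 6 genes do not overlap, and each position belongs to 1 gene.

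CTCF was profiled by CUT&RUN, in which an antibody directs a nuclease to the bound protein and the released DNA is sequenced. The study is about CTCF sites near Hoxb13 on chromosome 11, and none of the 6 genes is on that chromosome. All 4 lines carry a HoxB Del allele on one chromosome, and on the other a Del(i9-13) allele with an inserted array of CTCF sites, Ins(CBS5-10). The lines differ in that array. The line called Inv:Del(CBS7-10) here carries the inversion Inv(CBS5-10) and also the deletion Del(CBS7-10). The line called Inv carries the inversion Inv(CBS5-10) with no further deletion. The line called Del(CBS8-10) carries that deletion in the uninverted array. The line called Ins has the complete, uninverted array. Each genotype had 1 library, no unedited line was used here, and peak lists hold no expression values against which the cell type could be checked. Differences between libraries therefore have no replicate check, and genotype, clone and library cannot be told apart.

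Klf2, Klf4 and Klf5 encode zinc-finger transcription factors that bind GC-rich and CACCC-type DNA and, in mouse embryonic stem cells, help to keep up self-renewal. Klf2 and Klf4 are known as part of the naive pluripotency network, and Klf4 and Myc were among the factors first used to reprogram fibroblasts. Myc, Mycn and Mycl encode basic helix-loop-helix leucine-zipper factors that bind E-box DNA with MAX and promote growth and proliferation, while proteins of the MXD group compete for MAX. CTCF is a zinc-finger protein that binds a long motif and, with cohesin, marks the ends of many chromatin loops. In human cells a CTCF-bound element just upstream of the MYC promoter is known as a docking point for distant enhancers.

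The promoters of 3 of the genes show the kinds of pattern found at the starts: a weak peak over the start in some libraries (Klf2), the edge of a strong peak in all libraries (Mycl), and no peak at all (Klf4). Each window runs from 250 bases before to 50 bases after the transcription start in RefSeq (GRCm38.p6), read 5′ to 3′ on the strand of the gene. Capitals mark the bases that lay inside the peak intervals of every library with a peak there, which were Inv:Del(CBS7-10) and Ins for Klf2 and all 4 libraries for Mycl. The windows are chr8:72318812-72319111 on the plus strand for Klf2, chr4:122995681-122995980 on the plus strand for Mycl and chr4:55532426-55532725 on the minus strand for Klf4.
Klf2 promoter: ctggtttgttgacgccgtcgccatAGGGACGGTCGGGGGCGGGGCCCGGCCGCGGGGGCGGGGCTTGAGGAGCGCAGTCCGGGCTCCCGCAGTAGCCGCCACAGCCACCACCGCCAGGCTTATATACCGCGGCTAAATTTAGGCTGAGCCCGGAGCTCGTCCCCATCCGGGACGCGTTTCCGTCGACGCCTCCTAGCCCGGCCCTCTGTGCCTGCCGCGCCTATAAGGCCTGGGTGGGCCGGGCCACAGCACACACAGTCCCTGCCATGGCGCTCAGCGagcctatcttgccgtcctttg
Mycl promoter: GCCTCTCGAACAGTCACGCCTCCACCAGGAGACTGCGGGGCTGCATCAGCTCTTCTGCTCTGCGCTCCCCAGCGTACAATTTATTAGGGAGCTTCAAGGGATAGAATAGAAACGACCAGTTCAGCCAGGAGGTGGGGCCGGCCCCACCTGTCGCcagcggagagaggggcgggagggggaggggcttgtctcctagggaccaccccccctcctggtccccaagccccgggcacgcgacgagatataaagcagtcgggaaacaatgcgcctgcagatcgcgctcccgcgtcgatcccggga
Klf4 promoter: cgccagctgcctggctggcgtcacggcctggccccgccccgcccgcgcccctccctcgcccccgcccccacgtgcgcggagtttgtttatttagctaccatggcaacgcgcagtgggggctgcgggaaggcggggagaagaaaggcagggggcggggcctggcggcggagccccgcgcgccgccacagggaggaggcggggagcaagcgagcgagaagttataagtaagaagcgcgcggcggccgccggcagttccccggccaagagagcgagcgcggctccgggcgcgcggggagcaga
In the Klf2 window 255 of the 300 bases lay inside both intervals, and the summits of both libraries fell in it. In the Mycl window 154 bases lay inside all 4 intervals, while the summits lay further upstream. Promoter sequences were matched for 4 of the 6 genes, and the Mycn window also met no peak interval in any list. The GC content was 69.3% for Klf2, 64% for Mycl, 74.3% for Klf4 and 56.7% for Mycn, against a median of 52.7% over all promoter windows.

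The lists held 99177 peaks for Inv:Del(CBS7-10), 66365 for Inv, 74555 for Del(CBS8-10) and 93969 for Ins. The sources used here do not state the read depth, so the pileup at each summit (the number of fragments that cover it) and its local background were recovered from the fold and the p-value that the authors' peak caller gave. The median pileup was 35 in Inv:Del(CBS7-10), 14 in Inv, 17 in Del(CBS8-10) and 26 in Ins, and the genome background was 1.33, 0.19, 0.553 and 0.858 fragments in the same order. The Inv list is thus the shortest and has the lowest background and pileup. Pileups were scaled by a factor of 2.42 for Inv:Del(CBS7-10), 0.49 for Inv, 0.642 for Del(CBS8-10) and 1.36 for Ins. Each factor is the median ratio of a library's pileup to the geometric mean of the 4 libraries at the same position. The median was taken over 40573 positions found in all 4 lists outside chromosome 11. The strength of a peak is given below as its −log10 q, which increases with depth and is not comparable between libraries, and intervals cover counting error only.

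CTCF positions near the 6 genes were found in every library in some cases and in only some libraries in most. The windows held 47 summits in Inv:Del(CBS7-10), 23 in Inv, 34 in Del(CBS8-10) and 43 in Ins. Of the 68 positions, 15 were found in all 4 libraries (22.1%, against 32.8% of all 123687 positions), 11 in 3, 12 in 2, and 30 in 1 library only (44.1%, against 38.7% of all positions). The positions found in 1 library only had a median −log10 q of 4.41, against 4.9 over all such positions, and a highest of 15.5. For positions in all 4 libraries the highest −log10 q per position had a median of 69.6, against 99.7 over all such positions, and ran between 23.7 and 156.6. Positions in 3 libraries reached 64.8, so the ranges overlapped. A highest value over more libraries is higher by construction, and no comparison between these classes is made. The 15 positions were spread unevenly over the genes: Mycl had 5, Klf2 had 4, Mycn had 3, Klf4 had 2, Myc had 1 and Klf5 had none. Mycn had the most promoter-near positions (6 of its 12), and Klf2, with 14 positions, the most in all.

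**Figure D1:**
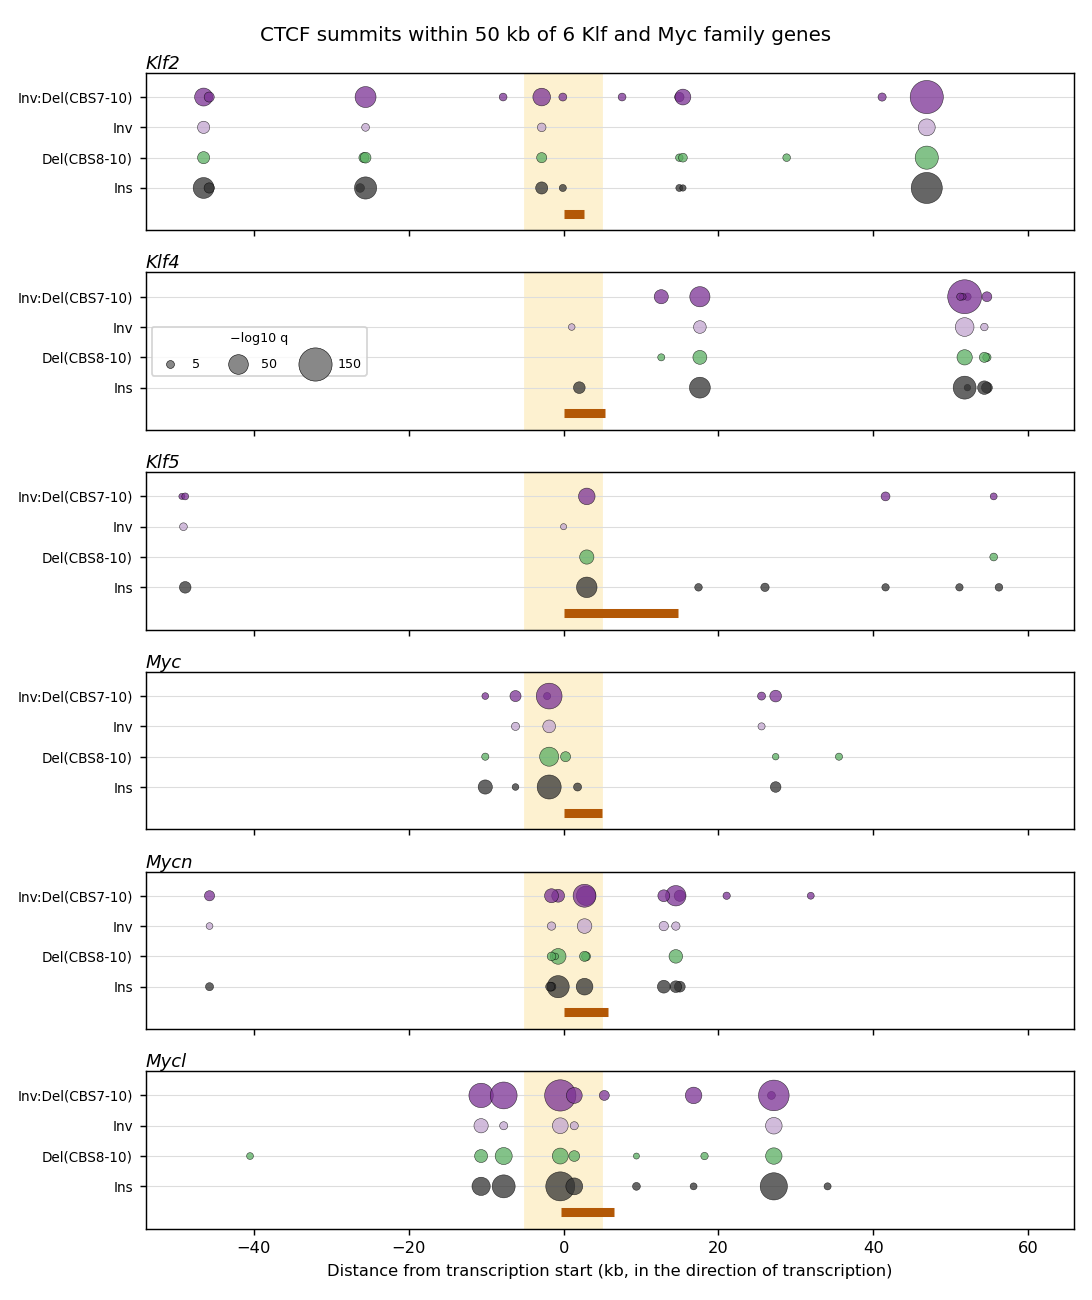
Positions of CTCF summits around the 6 genes, by distance from the transcription start in kb in the direction of transcription, with a row for each library in each panel. Each circle is a summit and its area grows with the −log10 q, the brown bar is the gene and the yellow band the promoter-near range of 5 kb on either side; Klf4 and Klf5 have no large circle in all 4 rows inside the band.

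**Figure D2:**
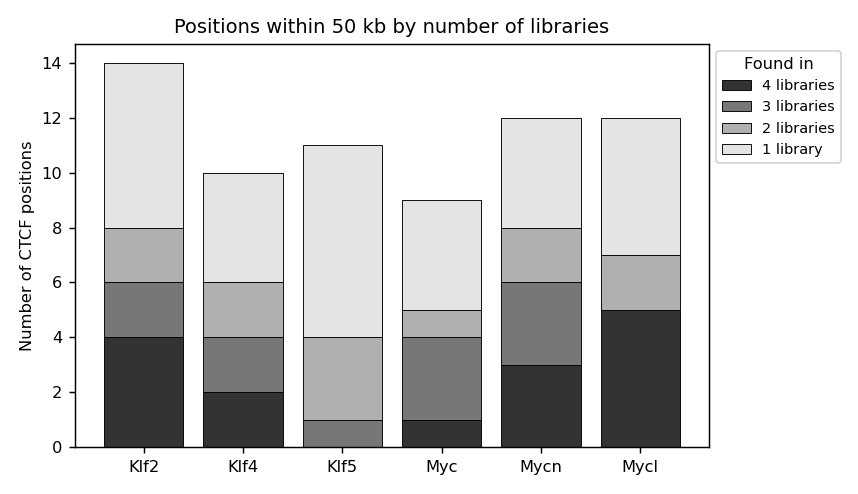
Number of positions per gene, split by how many of the 4 libraries had a summit there. Mycl has 5 positions found in all 4 libraries and Klf5 has none, while 30 of the 68 positions were found in 1 library only.

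Promoter-near CTCF positions found in all 4 libraries were present at Klf2, Myc, Mycn and Mycl and not at Klf4 or Klf5, that is at 4 of 6 genes. Over 16221 protein-coding genes outside chromosome 11 with a known start, 33.2% had such a position. All 3 Myc family genes were among the 4, against 1 of the 3 Klf genes, a split with no share over other gene families beside it. Klf5 was not among them only because Inv, the shortest list, had no summit at its position 3 kb into the gene. The −log10 q there was 34.7 in Inv:Del(CBS7-10), 24.7 in Del(CBS8-10) and 55 in Ins. Taken by library, 5 of the 6 genes had a promoter-near position in Inv:Del(CBS7-10) (57.2% of all genes), all 6 in Inv (46.9%), 5 in Del(CBS8-10) (47.1%) and all 6 in Ins (58.3%), and all 6 had one in some library, against 66.6% of all genes. In Inv, Klf4 and Klf5 counted only through summits of 4 and 3 fragments (−log10 q 2.49 and 1.6) that no other library had. Of the 18 promoter-near positions, 6 were found in all 4 libraries, and 11 were found in Inv:Del(CBS7-10), 8 in Inv, 11 in Del(CBS8-10) and 12 in Ins. The shares above are of genes, and the same shares over all promoter-near positions were not summarized. Each of the 6 genes had a position within 50 kb in each library, as did 93% of 20278 protein-coding genes in Inv:Del(CBS7-10), 90.6% in Inv, 92.3% in Del(CBS8-10) and 92.5% in Ins (95.5% in any library). With distal positions counted too, 5 of the 6 genes had a position in all 4 libraries within 50 kb, against 86.6% of these genes, so Klf5 was the exception among the 6. Protein-coding genes of at most 15 kb had a median of 3 such positions (quartiles 1 to 6), and 21.3% of these 9270 genes had none.

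Klf2, on the plus strand of chromosome 8 (72319062-72321654), had a moderate promoter-near position upstream of its start and its strongest position far downstream. The promoter-near position at chr8:72316237, 2.83 kb upstream, had a −log10 q of 39.8 in Inv:Del(CBS7-10), 6.7 in Inv, 10.7 in Del(CBS8-10) and 16.9 in Ins. Its pileup was 49, 9, 15 and 27 fragments in the same order, and after scaling 20.2, 18.4, 23.4 and 19.8. The scaled values differed by at most 1.27-fold, which was the narrowest spread of the 15 positions found in all 4 libraries (1.75-fold, with Del(CBS8-10) lowest, when pileups were divided by genome background instead). A summit over the start itself, 95 bp upstream and inside the capitals of the sequence above, was found in Inv:Del(CBS7-10) (−log10 q 5.19, 15 fragments) and in Ins (3.42, 12 fragments), and in neither Inv nor Del(CBS8-10).

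The strongest Klf2 position, at chr8:72365983, lay 46.9 kb downstream inside the gene Eps15l1, which encodes an endocytic adaptor. Its −log10 q was 149.6 in Inv:Del(CBS7-10), 36.2 in Inv, 71.1 in Del(CBS8-10) and 130.9 in Ins, and it ranked above 86% of the peaks of Inv:Del(CBS7-10), 83.3% of those of Inv, 97.7% of those of Del(CBS8-10) and 96.7% of those of Ins. Scaled pileups were 57, 67.3, 109 and 90.4 in the same order. Upstream, 2 distal positions were found in every library. At 46.5 kb upstream (chr8:72272561) the −log10 q was 41.4 in Inv:Del(CBS7-10), 17.3 in Inv, 16.9 in Del(CBS8-10) and 57.1 in Ins. At 25.6 kb upstream (chr8:72293483) it was 57.7 in Inv:Del(CBS7-10), 4.92 in Inv, 12.7 in Del(CBS8-10) and 65 in Ins. This position had 61 fragments in Inv:Del(CBS7-10), 6 in Inv, 18 in Del(CBS8-10) and 74 in Ins, and its scaled values, 25.2, 12.2, 28 and 54.4, had the widest spread of the 15 (4.44-fold). Inv was the low library there and Ins the high one. When pileups were divided by genome background the spread was 2.73-fold, with Ins still highest and Inv (31.6) nearly equal to Del(CBS8-10) (32.5). It was then no longer the widest, as Mycn 2.71 kb into the gene had 3.69-fold and Klf4 51.8 kb downstream had 3.52-fold.

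The other named Klf2 positions had no summit in Inv. At 15.4 kb downstream the −log10 q was 31.3 in Inv:Del(CBS7-10), 7.17 in Del(CBS8-10) and 1.96 in Ins. At 45.8 kb upstream it was 10.5 in Inv:Del(CBS7-10) and 11.1 in Ins, with no summit in Inv or Del(CBS8-10). A second Del(CBS8-10) summit 25.8 kb upstream (10.5) lay inside the intervals that the other 3 libraries had around the position at 25.6 kb, with their summits 214, 209 and 211 bp away, so it is not a site that these libraries lacked. The remaining 6 distal Klf2 positions had a highest −log10 q between 4.56 and 8.72.

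Klf4, on the minus strand of chromosome 4 (55527137-55532475), had no promoter-near position shared by any libraries, and its strong peaks lay downstream. In Ins a summit of −log10 q 15.5 (23 fragments) lay 2.03 kb into the gene at chr4:55530441. In Inv a summit of 2.49 with 4 fragments lay 1.05 kb into the gene at chr4:55531420. Inv:Del(CBS7-10) and Del(CBS8-10) had no summit within 5 kb of the start, and their nearest lay 12.6 kb downstream (24.2 in Inv:Del(CBS7-10), 3.37 in Del(CBS8-10)). No peak interval of any library reached the promoter window of Klf4 printed above.

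Downstream of Klf4, in a region known for enhancers that are active in mouse embryonic stem cells, 2 positions were found in all 4 libraries. The stronger, at chr4:55480660 and 51.8 kb from the start, had a −log10 q of 156.6 in Inv:Del(CBS7-10), 45.1 in Inv, 29 in Del(CBS8-10) and 69.7 in Ins, the highest value of the 68 positions in Inv:Del(CBS7-10) and in Inv. Its pileup was 188 fragments in Inv:Del(CBS7-10), 52 in Inv, 43 in Del(CBS8-10) and 98 in Ins, or 77.6, 106.1, 67 and 72 after scaling, a spread of 1.58-fold with Inv highest (3.52-fold, Inv still highest, with division by genome background). The other, 17.6 kb from the start at chr4:55514865, had 53.2 in Inv:Del(CBS7-10), 18.9 in Inv, 23.5 in Del(CBS8-10) and 57 in Ins. Next to the strong position, summits at 54.4 kb and 54.7 kb were each found in 3 libraries. The first had a −log10 q of 4.23 in Inv, 10.5 in Del(CBS8-10) and 21.9 in Ins, and the second had 9.86 in Inv:Del(CBS7-10), 5.9 in Del(CBS8-10) and 12.8 in Ins. In Del(CBS8-10) and Ins both summits lay in the same peak interval. The peaks of Inv:Del(CBS7-10) and Inv overlapped that interval, so every library had a peak in this stretch. The other 3 distal positions reached at most 4.14. No summit lay upstream of Klf4 within 50 kb in any library, and the nearest beyond lay 118.5 kb away in Ins (2.45).

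Klf5, on chromosome 14 (99298691-99313412), which was placed on the plus strand from general knowledge, was the gene with no position found in all 4 libraries. A position 3 kb into the gene at chr14:99301691 had a −log10 q of 34.7 in Inv:Del(CBS7-10), 24.7 in Del(CBS8-10) and 55 in Ins, and no summit in Inv. Its fold over the local background was 13.6 in Inv:Del(CBS7-10), 12.3 in Del(CBS8-10) and 18.6 in Ins, and its scaled pileup 16.1, 43.6 and 39.7. The nearest Inv summit, with 3 fragments and a −log10 q of 1.6, lay 3 bp from the start, where no other library had a summit. Of Ins peaks outside chromosome 11 with a −log10 q between 50 and 100, 96.8% of 15389 had a summit in Inv within 100 bp. Of Inv:Del(CBS7-10) peaks with a −log10 q between 20 and 50, which is where this position falls in that library, 64.5% of 16056 had one. Among the Ins member summits between 50 and 100, 7 of 9 were found in Inv, and the other missing one was at Mycn. The named distal position, 48.9 kb upstream inside Pibf1, had 3.02 in Inv:Del(CBS7-10) and 15.2 in Ins, and the other 8 distal positions had at most 7.39.

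Myc, on chromosome 15 (61985341-61990361) and likewise placed on the plus strand, had its strongest position just upstream of the start in all 4 libraries. At chr15:61983483, 1.86 kb upstream, the −log10 q was 88.9 in Inv:Del(CBS7-10), 19.2 in Inv, 47 in Del(CBS8-10) and 76.8 in Ins. The fold was 16.1 in Inv:Del(CBS7-10), 11.9 in Inv, 14.2 in Del(CBS8-10) and 14.4 in Ins. The pileup was 103 fragments in Inv:Del(CBS7-10), 19 in Inv, 56 in Del(CBS8-10) and 95 in Ins. The scaled values were 42.5, 38.8, 87.2 and 69.8 in the same order. The ratio of Inv to Ins was 0.555 (95% counting interval 0.32 to 0.915), but 0.903 with division by genome background, where the 4 libraries lay within 1.43-fold of each other. The other 3 promoter-near positions were each in 1 library: 2.12 kb upstream in Inv:Del(CBS7-10) (3.42), 259 bp into the gene in Del(CBS8-10) (10.4, 22 fragments) and 1.81 kb into the gene in Ins (5.41).

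Distal positions of Myc were weaker, and none was found in all 4 libraries. At 10.1 kb upstream the −log10 q was 2.71 in Inv:Del(CBS7-10), 3.59 in Del(CBS8-10) and 24.5 in Ins, with 9, 7 and 30 fragments, and no summit in Inv. At 6.21 kb upstream it was 13.6 in Inv:Del(CBS7-10), 5.65 in Inv and 2.6 in Ins, with none in Del(CBS8-10). At 27.4 kb downstream it was 15.5 in Inv:Del(CBS7-10), 2.29 in Del(CBS8-10) and 12.1 in Ins, with none in Inv. Each of the 3 had a summit in both Inv:Del(CBS7-10) and Ins, and 1 of them in Inv. The remaining 2 distal positions reached 3.46 and 5.33. Enhancers of Myc are known to lie far beyond the window used here.

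Mycn, on the minus strand of chromosome 12 (12936093-12941836), had the densest promoter-near cluster, with 6 positions. The strongest that was found in all 4 libraries lay 2.71 kb into the gene at chr12:12939124, with a −log10 q of 69.6 in Inv:Del(CBS7-10), 26.1 in Inv, 10.5 in Del(CBS8-10) and 35.3 in Ins. Its pileup was 112 fragments in Inv:Del(CBS7-10), 33 in Inv, 26 in Del(CBS8-10) and 70 in Ins, or 46.2, 67.3, 40.5 and 51.4 after scaling. The spread was 1.66-fold, and 3.69-fold with division by genome background, with Inv highest and Del(CBS8-10) lowest under both. A further summit 2.91 kb into the gene (48.5 in Inv:Del(CBS7-10), 7.45 in Del(CBS8-10)) lay inside the Inv and Ins intervals, whose summits were 189 and 151 bp away. The peak caller gave 2 summits in this interval in Inv:Del(CBS7-10) and Del(CBS8-10), and 1 in Inv and Ins. The second position in all 4 libraries, 1.55 kb upstream at chr12:12943391, had 23.7 in Inv:Del(CBS7-10), 6.11 in Inv, 6.7 in Del(CBS8-10) and 6.92 in Ins.

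The position nearest the Mycn start lay 699 bp upstream at chr12:12942535 and was found in 3 libraries. Its −log10 q was 19.4 in Inv:Del(CBS7-10), 30.9 in Del(CBS8-10) and 64.8 in Ins, and its pileup 55, 48 and 101 fragments. In Inv no interval covered it, and the nearest Inv summit was 760 bp away. Inv was the missing library at 60.7% of all positions found in 3 libraries outside chromosome 11. By strength, 96.8% of Ins peaks with a −log10 q between 50 and 100, as here, had an Inv summit within 100 bp. Of Inv:Del(CBS7-10) peaks between 10 and 20, where this position falls in that library, 36% had one. The scaled pileup of this position was 22.7 in Inv:Del(CBS7-10), 74.8 in Del(CBS8-10) and 74.2 in Ins. Single-library summits lay 1.06 kb upstream in Del(CBS8-10) (2.31) and 1.73 kb upstream in Ins (7.65), the second inside the Inv:Del(CBS7-10) interval around the position at 1.55 kb.

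Of the named distal positions of Mycn 3 of 4 lay downstream of the gene. At 14.5 kb (chr12:12927334) the −log10 q was 54.3 in Inv:Del(CBS7-10), 6.2 in Inv, 22.1 in Del(CBS8-10) and 15.4 in Ins, with 69, 8, 29 and 28 fragments. At 15 kb it was 13.8 in Inv:Del(CBS7-10) and 12.8 in Ins, and at 12.9 kb it was 16 in Inv:Del(CBS7-10), 8.76 in Inv and 19.3 in Ins. Del(CBS8-10) thus had a summit at the first of these and at neither of the others. Upstream, a position 45.7 kb away in the noncoding gene Gm35208 had 10.8 in Inv:Del(CBS7-10), 2.75 in Inv and 5.41 in Ins. The other 2 distal positions had 3.02 and 3.86.

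Mycl, on the plus strand of chromosome 4 (122995588-123002490), had the largest share of positions found in all 4 libraries, 5 of 12, of which 2 were promoter-near. The promoter-near position 425 bp upstream of its start at chr4:122995506 was the strongest of the 6 genes in Inv:Del(CBS7-10), Inv and Ins, while in Del(CBS8-10) that of Myc was stronger. The annotated span of Mycl begins between that summit and the start used here. The −log10 q was 132.9 in Inv:Del(CBS7-10), 31.3 in Inv, 31.8 in Del(CBS8-10) and 113.7 in Ins, with a fold of 16.7, 12.8, 10.8 and 17.2. The pileup was 155 fragments in Inv:Del(CBS7-10), 37 in Inv, 44 in Del(CBS8-10) and 130 in Ins, and the scaled values, 64, 75.5, 68.5 and 95.5, lay within 1.49-fold of each other (2.45-fold with division by genome background). The capitals in the Mycl promoter sequence above are the part of the window that this peak reached in all 4 libraries. The other promoter-near position, 1.38 kb into the gene at chr4:122997315, had 31.5 in Inv:Del(CBS7-10), 5.58 in Inv, 12.6 in Del(CBS8-10) and 36.1 in Ins.

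The distal Mycl positions found in all 4 libraries lay on both sides of the gene. At 10.7 kb upstream (chr4:122985278) the −log10 q was 79.2 in Inv:Del(CBS7-10), 24.8 in Inv, 20.1 in Del(CBS8-10) and 43 in Ins. At 7.74 kb upstream (chr4:122988196) it was 96.8 in Inv:Del(CBS7-10), 5.52 in Inv, 36.9 in Del(CBS8-10) and 69.9 in Ins, and the pileup was 115, 11, 45 and 83 fragments, with Inv lowest also after scaling (22.4, against 47.5 in Inv:Del(CBS7-10), 70.1 in Del(CBS8-10) and 61 in Ins). At 27.2 kb downstream, inside Trit1, which encodes a transfer RNA modifying enzyme, it was 127.1 in Inv:Del(CBS7-10), 34.7 in Inv, 34 in Del(CBS8-10) and 99.7 in Ins. Inv:Del(CBS7-10) had a further summit 16.8 kb downstream (34.6, against 3.09 in Ins and none in the other two) and one 5.26 kb into the gene that no other library had (10.3). The other 5 distal positions had at most 5.12.

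The first comparison, Inv:Del(CBS7-10) against Inv, concerned the loss of part of the inverted array, with no replicates and so no test. A summit of Inv lay within 100 bp of 19 of the 47 member summits of Inv:Del(CBS7-10) (40.4%, 95% Wilson interval 27.6 to 54.7), against 56.3% of all summits outside chromosome 11. In the other direction 19 of 23 Inv summits were found in Inv:Del(CBS7-10) (82.6%, interval 62.9 to 93.0), against 85.8% of all. Of the 19 shared positions 2 differed by more than 2-fold in scaled pileup, both higher in Inv:Del(CBS7-10) and none lower, against 17.7% of all 50281 shared positions in either direction, 5.19% higher and 12.5% lower. These were Mycl at 7.74 kb upstream (ratio 2.12, interval 1.14 to 4.36) and Klf2 at 25.6 kb upstream (2.06, interval 0.893 to 5.83, which includes 1). Dividing by genome background instead moves every log2 ratio of this pair by −0.50. Neither position then stayed past 2-fold, at 1.5 and 1.46, and 5 others were lower in Inv:Del(CBS7-10) and 0 higher, against 28.8% of all shared positions lower and 1.25% higher. The median log2 ratio was −0.24 over the members and −0.12 over all shared positions.

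The second comparison, Inv against Ins, concerned the inversion of the complete array. Of the 23 Inv summits 19 were found in Ins (82.6%), against 80.7% of all. Of the 43 Ins summits 19 were found in Inv (44.2%, interval 30.4 to 58.9), against 56% of all. Past 2-fold were 2 of 19 positions, both lower in Inv and none higher, against 17.6% of all 47486 shared positions in either direction, 8.12% lower and 9.48% higher. The scaled pileup of Klf2 at 25.6 kb upstream was 12.2 in Inv and 54.4 in Ins, a ratio of 0.225 (interval 0.08 to 0.514), and 0.31% of all shared positions had a lower ratio. Mycl at 7.74 kb upstream had 22.4 in Inv and 61 in Ins, a ratio of 0.368 (0.177 to 0.693). Dividing by genome background moves every log2 ratio of this pair by 0.70. The ratios were then 0.366 and 0.598, so that the Klf2 position stayed past 2-fold and the Mycl position did not, and 4 positions were higher in Inv and 1 lower, against 36.8% of all shared positions higher and 1.31% lower. The Klf2 position 25.6 kb upstream was thus the only call of this pair that held under both scalings. The same 2 positions passed in the first comparison and the same Inv library enters both, so the comparisons are not independent. The median log2 ratio was −0.28 over the members and 0.07 over all shared positions.

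The third comparison, Del(CBS8-10) against Ins, concerned the loss of part of the uninverted array. Of the 34 Del(CBS8-10) summits 24 were found in Ins (70.6%, interval 53.8 to 83.2), against 81.4% of all, and 24 of the 43 Ins summits were found in Del(CBS8-10) (55.8%, interval 41.1 to 69.6), against 64.9% of all. Past 2-fold were 3 of 24 positions, 2 higher in Del(CBS8-10) and 1 lower, against 7.14% of all 54815 shared positions in either direction, 5.42% higher and 1.72% lower. Klf2 at 15.4 kb downstream had 12 fragments in Del(CBS8-10) and 9 in Ins, a scaled ratio of 2.83 (interval 1.09 to 7.6). Mycn at 14.5 kb downstream had 29 fragments in Del(CBS8-10) and 28 in Ins, a ratio of 2.2 (1.26 to 3.83). Myc at 10.1 kb upstream had 7 fragments in Del(CBS8-10) and 30 in Ins, a ratio of 0.495 (0.183 to 1.15, which includes 1). Dividing by genome background moves every log2 ratio of this pair by −0.45. The ratios were then 2.07, 1.61 and 0.362, so that the Mycn position was no longer past 2-fold, and 1 position was higher in Del(CBS8-10) and 3 lower, against 1.16% of all shared positions higher and 9.78% lower. The promoter-near positions of Klf2, Klf5, Myc, Mycn and Mycl shared by these libraries stayed within 2-fold.

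**Figure D3:**
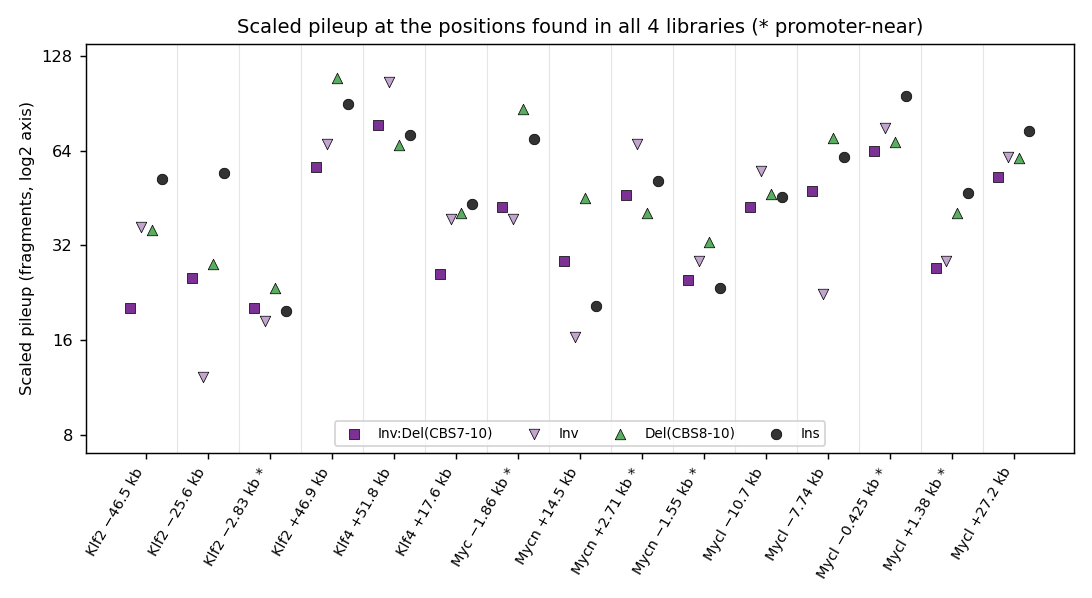
Scaled pileup in fragments (log2 axis) at the 15 positions found in all 4 libraries, with gene and distance from the start below and a marker for each library. The libraries lie close together at the Klf2 position 2.83 kb upstream (18.4 to 23.4) and far apart at that 25.6 kb upstream (12.2 in Inv to 54.4 in Ins).

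**Figure D4:**
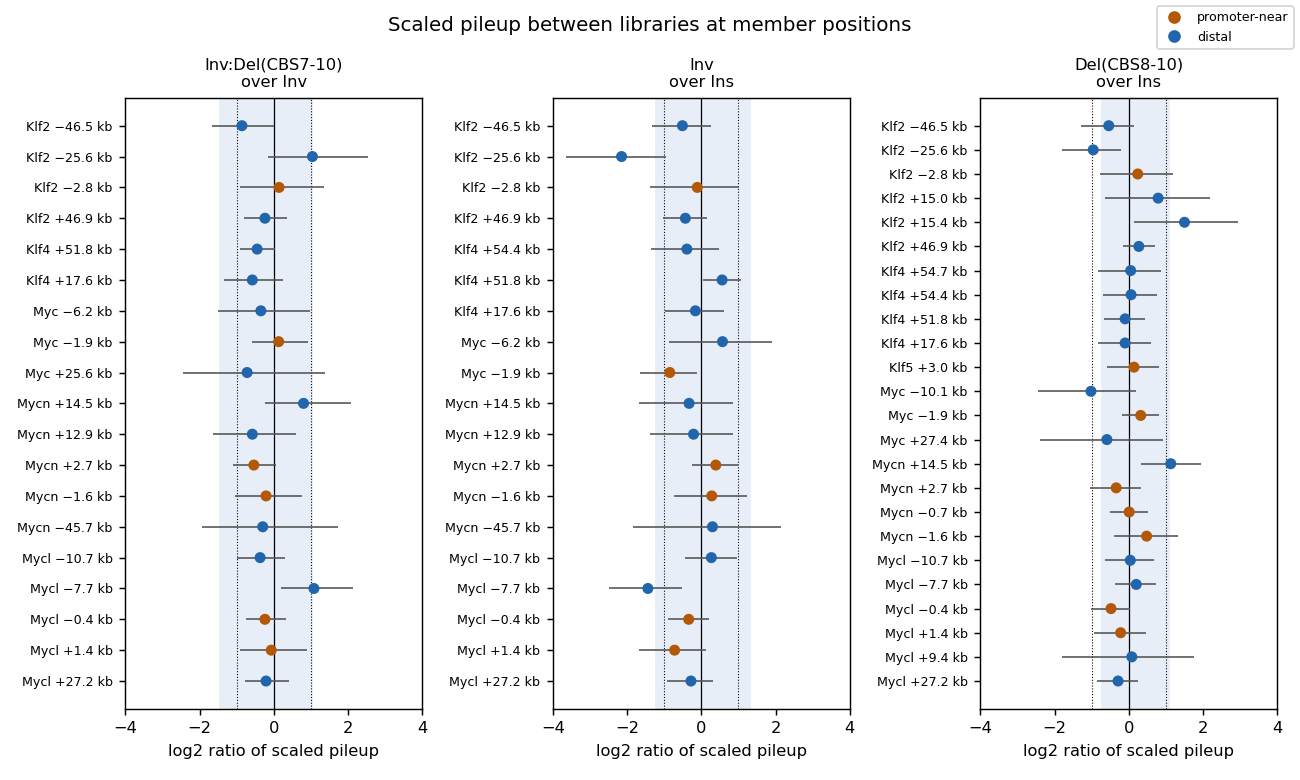
Log2 ratio of scaled pileup for the 3 pairs of libraries at every member position found in both, with bars for 95% counting intervals. The shaded band holds the middle 90% of all shared positions outside chromosome 11 and the dotted lines mark 2-fold; the Klf2 position 25.6 kb upstream lies furthest from 0, at −2.15 for Inv over Ins.

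Over the 15 positions found in all 4 libraries, the ratio of the highest to the lowest scaled pileup had a median of 1.67 and a range of 1.27 to 4.44. Over all 40574 such positions outside chromosome 11 the median was 1.78, with quartiles of 1.48 and 2.29. The spread at the member positions was thus near that of all positions. Inv:Del(CBS7-10) was the lowest library at 7 of the 15 (25.2% of all such positions), Inv at 5 (29.5%), Del(CBS8-10) at 2 (24.8%) and Ins at 1 (20.5%). With division by genome background the counts were 3, 2, 8 and 2 in the same order, so which library is lowest at these positions depended on the scaling. This scaling moves all positions of a library by the same factor. The shares over all positions were not summarized for it, so these counts are not a result about the members. Of the 11 positions found in 3 libraries Inv was the missing one at 7, Del(CBS8-10) at 3, Inv:Del(CBS7-10) at 1 and Ins at 0, and over all 16859 positions found in 3 libraries the shares were 60.7%, 31.4%, 3.23% and 4.64% in that order. Positions found in 1 library only numbered 11 in Inv:Del(CBS7-10), 3 in Inv, 7 in Del(CBS8-10) and 9 in Ins. The lists differ in length, and the split of all 47879 such positions by library was not summarized, so these counts only describe the members. In 8 of the 125 cases where a library lacked a member summit (6.4%), an interval of that library covered the position, against 8.47% of 197246 such cases over all positions. By overlap of the whole intervals, which is a wider criterion, 26 of the 47 Inv:Del(CBS7-10) summits had a counterpart in Inv, against 19 by summits.

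The local background, relative to the genome background of the same library, differed between the genes. At promoter-near summits it was 7.52 to 10.7 times the genome background at Mycn, 5.71 to 11.4 times at Mycl and 3.58 to 6.62 times at Myc. At the promoter-near summits of Klf2 (1.95 to 3.05), Klf4 (1.68 to 2.21) and Klf5 (1.46 to 2.46) it lay closer to the median of 2.32 over all summits outside chromosome 11 (quartiles 1.19 and 4.74). That median covers promoter-near and distal summits together, and the promoter-near summits of other genes were not summarized. The promoter-near range rests on 2 summits at Klf4 and on 4 at Klf5, so these values only describe the 6 genes. The sources state no control, and whether this background includes fragments of the peaks nearby was not tested. Summits close together had nearly the same value and are not separate measurements. In Inv:Del(CBS7-10) the Mycn positions 2.91 and 2.71 kb into the gene had 8.05 and 8.12. Distal summits of Klf4 had 2.13 to 14.7 times the genome background, with a median of 7.78. The fold that the peak caller gives divides by this local background, so a given pileup yields a lower fold near Mycn and Mycl than near Klf5.

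**Figure D5:**
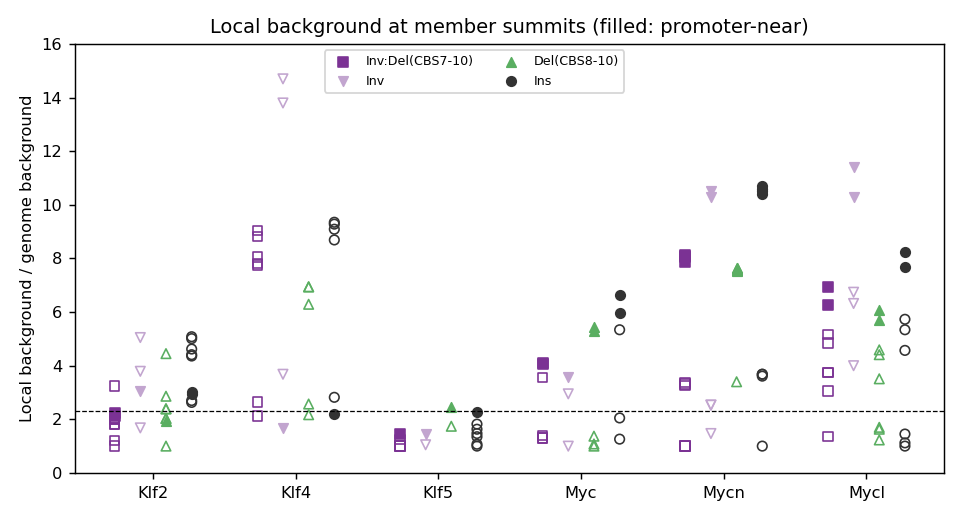
Local background at each member summit divided by the genome background of its library, by gene, with a marker for each library; filled markers are promoter-near and open ones distal. The dashed line is the median of all summits outside chromosome 11 (2.32); the filled markers of Myc, Mycn and Mycl lie above it, between 3.58 and 11.4.

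The other genes of the families gave the setting for these counts. Of 14 other Klf genes 11 had a known start (not Klf10, Klf14 and Klf16), and 2 of these had a promoter-near position in all 4 libraries (18.2%, against 33.2% of all genes). By library 9 of 11 had a promoter-near position in Inv:Del(CBS7-10) (81.8%, against 57.2% of all genes) and 6 in Inv (54.5%, against 46.9%). In Del(CBS8-10) it was 5 (45.5%, against 47.1%) and in Ins 9 (81.8%, against 58.3%). In any library 10 had one (90.9%, against 66.6%). Klf1, the erythroid family member, had the strongest, 1174 bp into the gene, with a −log10 q of 125.5 in Inv:Del(CBS7-10), 33 in Inv, 19.1 in Del(CBS8-10) and 69.8 in Ins. Within 50 kb 13 of the 14 had a position in all 4 libraries (against 86.6% of all genes), Klf6 being the exception, as Klf5 was among the members. The next strongest in Ins were Klf6 at 159 bp upstream (8.18 in Del(CBS8-10) and 14.2 in Ins) and Klf9 at 391 bp upstream (4.6 in Inv:Del(CBS7-10) and 11.4 in Ins).

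Of 11 MYC partners and antagonists outside chromosome 11, 10 had a known start (not Mycbp2), and 5 of these had a promoter-near position in all 4 libraries (50%, against 33.2% of all genes). By library 9 of 10 had one in Inv:Del(CBS7-10) (90%, against 57.2% of all genes) and 7 in Inv (70%, against 46.9%). In Del(CBS8-10) it was 7 (70%, against 47.1%) and in Ins 9 (90%, against 58.3%). In any library 9 had one (90%, against 66.6%). Max, which encodes the shared partner, was among the 5 without. Mxd1, which encodes a repressor that competes for MAX, had the strongest, 1843 bp upstream, with a −log10 q of 325.2 in Inv:Del(CBS7-10), 51.3 in Inv, 74.6 in Del(CBS8-10) and 178.3 in Ins. Mga, which encodes another MAX partner, had 48.1 in Inv:Del(CBS7-10), 11.3 in Inv, 25.2 in Del(CBS8-10) and 71.6 in Ins at 3033 bp into the gene. Mxd3 had 116.7 in Inv:Del(CBS7-10), 53.2 in Inv, 22.5 in Del(CBS8-10) and 53.3 in Ins at 1822 bp into the gene. All 11 genes had a position in all 4 libraries within 50 kb, against 86.6% of all genes.

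The window of 50 kb leaves strong peaks just outside for 3 genes. Upstream of Mycl the first position beyond it lay 51 kb from the gene at chr4:122944585, with a −log10 q of 171.8 in Inv:Del(CBS7-10), 24 in Inv, 38.7 in Del(CBS8-10) and 82.6 in Ins, while the last one inside, 40.2 kb away, had 2.93 in Del(CBS8-10) only. Upstream of Klf2 the first outside lay 57.8 kb away (106.4 in Inv:Del(CBS7-10), 10.2 in Inv, 27.8 in Del(CBS8-10) and 56.4 in Ins), and the last inside was the position at 46.5 kb. Upstream of Mycn the first outside lay 67.8 kb away (83 in Inv:Del(CBS7-10), 21.1 in Inv, 19.9 in Del(CBS8-10) and 75.2 in Ins), and the last inside was the one in Gm35208. On the other sides of the windows the nearest position outside was found in 1 or 2 libraries, with a −log10 q of at most 11.6.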

How the data were processed

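CTCF CUT&RUN was done on 4 mESC lines, 1 library per genotype, and the deposited files are the authors' peak lists. The build is a modified mm10 in which chromosome 11 is present as 2 copies. Of tools, the notes on processing by the submitters list MACS2 2.2.7.1, Bowtie2 2.4.5, cutadapt 4.1, bedtools 2.30.0 and Picard. The sources used here state neither settings nor read depth nor a control. For each peak the authors deposited a score, the fold over local background, a −log10 q-value and a −log10 p-value, all from their peak caller (the lowest −log10 q was 1.30 to 1.31), and these describe peaks within a list.

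Computed here, with SciPy 1.17.1, pandas 2.3.3 and NumPy 2.4.6 under Python 3.11.15 (Matplotlib 3.10.9 for figures), were the matching of summits, and the pileup and background. These were recovered as the whole-number pileup (tolerance 0.001) that satisfies both fold, with 1 added to pileup and background, and p, and the commonest background of a list was its genome background. The recovery was tested on simulated data. Genes came from RefSeq (GRCm38.p6). Strands and starts came from its promoter table for 4 members. Klf5 and Myc were placed on the plus strand from general knowledge, with the gene start as transcription start. Positions are counted from 1. A position is given at the summit of the list with its highest −log10 q.

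With 1 library per genotype there was no test. A called position is one past 2-fold in scaled pileup, with an exact conditional binomial 95% interval (shares have Wilson intervals) that covers counting error only. Every promoter-near position was named, and each distal one found in all 4 libraries or with a −log10 q of at least 10 in any list. From the other families, up to 3 genes each were named by the promoter-near −log10 q in Ins. The members and lists were chosen with earlier results of these data known. Genes on chromosome 11 (Mlx and Mnt) were left out. The alternatives tried were a stricter −log10 q (at least 10), each list's 20000 strongest peaks, other matching (250 bp, any overlap, 50% reciprocal overlap), windows of 25 and 100 kb, promoter ranges of 2 and 10 kb, leaving out Inv, and scaling by genome background. A CTCF motif was searched on both strands of the promoter windows only. It had 0 matches in those of Klf2 (which holds 2 summits), Klf4, Mycn and Mycl. Outside chromosome 11, 2.38% of all 30562 promoter windows had a match. The share was 9.96% for windows with a summit position found in all 4 lists and 1.57% for those with no summit in any list. The motif under the other member summits was not searched, since no genome sequence was used.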

Additional observations from a re-analysis of the deposited data

How the results depend on the processing

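Of 90 values under alternatives 51 stayed near those reported (a count within 1.5 times, a share within its 95% Wilson interval) and 39 moved. For these the cause was not tested beyond the alternative's own construction (fewer peaks, or a wider or narrower window). With a −log10 q of at least 10, 9 positions were found in all 4 libraries, 3 of them promoter-near. The summits then numbered 28 in Inv:Del(CBS7-10), 9 in Inv, 19 in Del(CBS8-10) and 25 in Ins, the shares found were 100% of Inv summits in Inv:Del(CBS7-10) and 100% in Ins (9 of 9 each) and 89.5% of Del(CBS8-10) in Ins, and the positions past 2-fold were 0 for Inv:Del(CBS7-10) over Inv, 0 for Inv over Ins and 1 for Del(CBS8-10) over Ins. With the 20000 strongest peaks of each list, 4 positions were found in all 4 libraries, 1 of them promoter-near. The summits numbered 4 in Inv:Del(CBS7-10), 6 in Inv, 7 in Del(CBS8-10) and 8 in Ins, the shares were 100% of Inv:Del(CBS7-10) in Inv, 100% of Del(CBS8-10) in Ins and 87.5% of Ins in Del(CBS8-10), and 0 positions were past 2-fold in each pair. With any overlap of intervals 55.3% of Inv:Del(CBS7-10) summits were found in Inv, and with reciprocal overlap of 50% only 60.9% of Inv summits were found in Inv:Del(CBS7-10). A window of 25 kb gave 31 summits in Inv:Del(CBS7-10) and 28 in Ins, and 1 position past 2-fold for Inv:Del(CBS7-10) over Inv and 1 for Inv over Ins. A window of 100 kb gave 79 summits in Inv:Del(CBS7-10), 45 in Inv, 56 in Del(CBS8-10) and 77 in Ins, 31 positions found in all 4 libraries, and 7 past 2-fold for Inv:Del(CBS7-10) over Inv and 4 for Inv over Ins. More summits were shared at 100 kb: 38 of Inv:Del(CBS7-10) were found in Inv and 35 of Inv in Ins. These numbers were 19 and 19 at 50 kb, and 14 and 13 at 25 kb. For other peak cutoffs, matching and windows the share of all positions past 2-fold was not summarized. Scaling by genome background gave 5 of 19 past 2-fold for Inv:Del(CBS7-10) over Inv (2 reported), against 30.1% of all shared positions. It gave 5 of 19 for Inv over Ins (2 reported), against 38.1% of all. Most of these were in the opposite direction. Changes within that tolerance were 22 positions found in the 3 libraries other than Inv, 8 of them promoter-near, 4 and 7 promoter-near positions in all 4 libraries with promoter ranges of 2 and 10 kb, and, with matching at 250 bp, 3 positions past 2-fold for Inv:Del(CBS7-10) over Inv and 46.8% of Inv:Del(CBS7-10) summits found in Inv. No paired analysis was possible because each genotype had 1 library. Read depth is not stated, the Inv list had the lowest pileups, and whether depth is why a position has no summit there was not tested.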
